A study of Homo sapiens with 6 samples.

Results

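The oxygen-sensing and collagen hydroxylases described here are 10 genes: EGLN1, EGLN2, EGLN3, HIF1AN, P4HA1, P4HA2, PLOD1, PLOD2, PLOD3 and KDM3A. They were taken by gene symbol from a table of estimated read counts with 60675 genes and 6 libraries. They were chosen with earlier results of these data known. All 10 were among the 16503 genes that passed the filter on low counts and were tested. RNA was sequenced from HCT116, an established human colorectal carcinoma line, in 3 groups of 2 libraries each. The siPIR libraries came from cells given small interfering RNA against PIR, which encodes the iron-binding nuclear protein Pirin, for 48 h. Their titles name the knockdown alone, but their treatment label also names SP2509, and the labels do not settle if the compound was added to them as well. The SP2509 libraries came from cells given 3 uM SP2509, an inhibitor of the histone demethylase LSD1, for 48 h. The untreated libraries are the common control, and the protocol names a DMSO arm without saying which libraries belong to it. No library is labelled as treated with a non-targeting small interfering RNA. Nothing in the labels says that replicates came from separate cultures, so the p-values cover the variation between these libraries alone, and that variation may be technical.

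All 10 enzymes need iron, molecular oxygen and 2-oxoglutarate. The EGLN enzymes hydroxylate prolines of the alpha subunits of the hypoxia-inducible factors (HIF), which the VHL ubiquitin ligase then recognises, and HIF1AN hydroxylates an asparagine that blocks the recruitment of a coactivator. P4HA1 and P4HA2 are catalytic subunits that join P4HB to hydroxylate collagen prolines, the PLOD enzymes hydroxylate collagen lysines, and KDM3A removes repressive methyl groups from a histone lysine. EGLN1, EGLN3, P4HA1, PLOD2 and KDM3A are among the members known as target genes of HIF in many cell types. This is not a full list of such members, and the part of HIF in their changes was not tested.

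HIF binds DNA at a short core, ACGTG in its commonest form. RefSeq promoters of EGLN1, EGLN3, P4HA1, PLOD2 and KDM3A, the 5 members that rose in siPIR libraries, are shown to let the core be seen in place. Each runs 5′ to 3′ on the strand of its gene, covers 250 bases before and 50 bases after the annotated start, and has ACGTG or its reverse complement CACGT in capitals. In build GRCh38.p14 they are chr1:231422238-231422537 for EGLN1, chr14:33951025-33951324 for EGLN3, chr10:73096817-73097116 for P4HA1 and chr3:146161135-146161434 for PLOD2, all on the minus strand. For KDM3A the first of its 2 promoters is given, chr2:86441121-86441420 on the plus strand.
EGLN1: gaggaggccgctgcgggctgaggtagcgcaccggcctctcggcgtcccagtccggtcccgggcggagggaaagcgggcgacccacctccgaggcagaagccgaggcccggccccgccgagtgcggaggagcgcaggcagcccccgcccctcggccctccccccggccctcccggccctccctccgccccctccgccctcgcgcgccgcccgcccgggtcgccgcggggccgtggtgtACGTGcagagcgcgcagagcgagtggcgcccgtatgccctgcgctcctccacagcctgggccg
EGLN3: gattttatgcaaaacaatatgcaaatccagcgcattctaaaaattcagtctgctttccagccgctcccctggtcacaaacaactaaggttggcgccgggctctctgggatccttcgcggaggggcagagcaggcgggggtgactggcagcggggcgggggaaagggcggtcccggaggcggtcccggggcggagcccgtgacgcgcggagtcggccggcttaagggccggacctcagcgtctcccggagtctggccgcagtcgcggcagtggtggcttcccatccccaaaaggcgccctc
P4HA1: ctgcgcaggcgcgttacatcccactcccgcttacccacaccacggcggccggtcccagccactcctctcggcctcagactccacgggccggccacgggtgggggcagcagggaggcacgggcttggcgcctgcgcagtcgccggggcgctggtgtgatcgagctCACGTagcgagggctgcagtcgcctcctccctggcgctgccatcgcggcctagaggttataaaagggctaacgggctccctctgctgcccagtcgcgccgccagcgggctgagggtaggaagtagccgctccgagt
PLOD2: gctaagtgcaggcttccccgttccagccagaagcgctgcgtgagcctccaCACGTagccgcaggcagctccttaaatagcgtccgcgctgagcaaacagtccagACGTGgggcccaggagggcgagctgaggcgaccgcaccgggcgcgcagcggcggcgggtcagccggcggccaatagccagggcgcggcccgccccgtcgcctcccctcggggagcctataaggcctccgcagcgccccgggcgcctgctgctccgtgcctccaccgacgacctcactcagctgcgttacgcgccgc
KDM3A: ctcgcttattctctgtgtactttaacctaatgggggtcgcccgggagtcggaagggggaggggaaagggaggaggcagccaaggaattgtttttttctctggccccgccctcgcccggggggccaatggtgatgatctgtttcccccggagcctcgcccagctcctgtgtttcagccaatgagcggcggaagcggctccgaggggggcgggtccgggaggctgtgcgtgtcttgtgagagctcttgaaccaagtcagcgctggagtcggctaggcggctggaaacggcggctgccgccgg
The first base of the core lies at position -13 from the start of EGLN1 and, on the other strand, at position -86 from that of P4HA1. PLOD2 holds it at positions -200 and -146 from its start, and EGLN3 and both promoters of KDM3A do not hold these letters in this window. The table has 12 promoters for the 10 genes, since EGLN2 and KDM3A have 2 each, and 4 of the 12 (33.3%) hold ACGTG on either strand. The fourth is a promoter of EGLN2, where both strands match in 1 palindrome. Of 15397 promoters of tested genes 25.1% hold the core, and of all 35116 promoters 21.4%. The related letters GCGTG were found in 33.3% of the members' promoters, 47.8% of those of tested genes and 36.5% of all. A match is a description of letters and not a measured binding site.

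The libraries held between 22622441 and 28816590 estimated counts. Levels are given as CPM, which are counts divided by library size, with library sizes scaled by edgeR's TMM method, and calls are those of edgeR's quasi-likelihood test with a Benjamini-Hochberg adjusted p under 0.05 over all 16503 genes. PIR itself had 37 and 39 counts in siPIR libraries, 377 and 305 in SP2509 libraries and 519 and 462 in untreated libraries. TERT, the gene named in the title of the series, had 3 and 1 counts in siPIR libraries, 62 and 59.5 in SP2509 libraries and 262.5 and 223 in untreated libraries. The siPIR libraries stand apart in base composition: the GC content of transcripts, weighted by counts, was 42.3% and 42.8% in siPIR libraries, 48.3% and 48.5% in SP2509 libraries and 48.7% and 48.5% in untreated libraries. Over 16345 genes the log2 fold change of siPIR against untreated had a Spearman correlation of -0.88 with transcript GC content, against -0.09 for SP2509 against untreated. Each member's siPIR difference is therefore set beside the median change of the tested genes within 1 percentage point of the same GC content, and beside a fit with a GC-length offset, in which a smooth trend on transcript GC and length is removed from each library. With the offset the correlation over all genes was -0.18, so a part of the trend remained. In siPIR against untreated libraries TERT changed by -6.04 as fitted and -1.65 with the offset on the log2 scale, and PIR by -2.87 and -2.003. In siPIR against SP2509 libraries TERT changed by -4.45 as fitted and -0.37 with the offset (edgeR adjusted p = 0.650). The part of base composition in the siPIR results was not tested further, and an offset estimated from the same libraries can also remove differences of the cells that run with GC content. With TMM scaling the median change of all genes was -0.28 in siPIR against untreated, -0.23 in siPIR against SP2509 and -0.04 in SP2509 against untreated on the log2 scale. With scaling by total counts alone these medians were -0.89, -0.46 and -0.43. Epithelial marker genes summed to 1359 and 1377 CPM in siPIR libraries, 4910 and 5008 CPM in SP2509 libraries and 3897 and 3835 CPM in untreated libraries, with CDX1 at 0 in all 6. Of the 8 tested, EPCAM and CDH1 rose in siPIR against untreated libraries, by 1.75 and 0.61 on the log2 scale. The other 6 fell (median of the list -2.71). With the offset 3 rose and 4 fell (median -0.29), and the list had a median GC content of 56.1%. The part of these markers in the results was not tested. Of the markers of other cells, PTPRC, CD3E and MS4A1 of leukocytes, CDH5 and CLDN5 of endothelium, and COL1A2 and POSTN of fibroblasts were at 0 in all 6. The summed leukocyte list lay between 0.469 and 1.94 CPM, the endothelial list between 1.20 and 16.1 CPM and the fibroblast list between 1.93 and 25.8 CPM. In bulk RNA, fewer cells of a kind and less RNA per cell cannot be told apart.

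**Figure D1:**
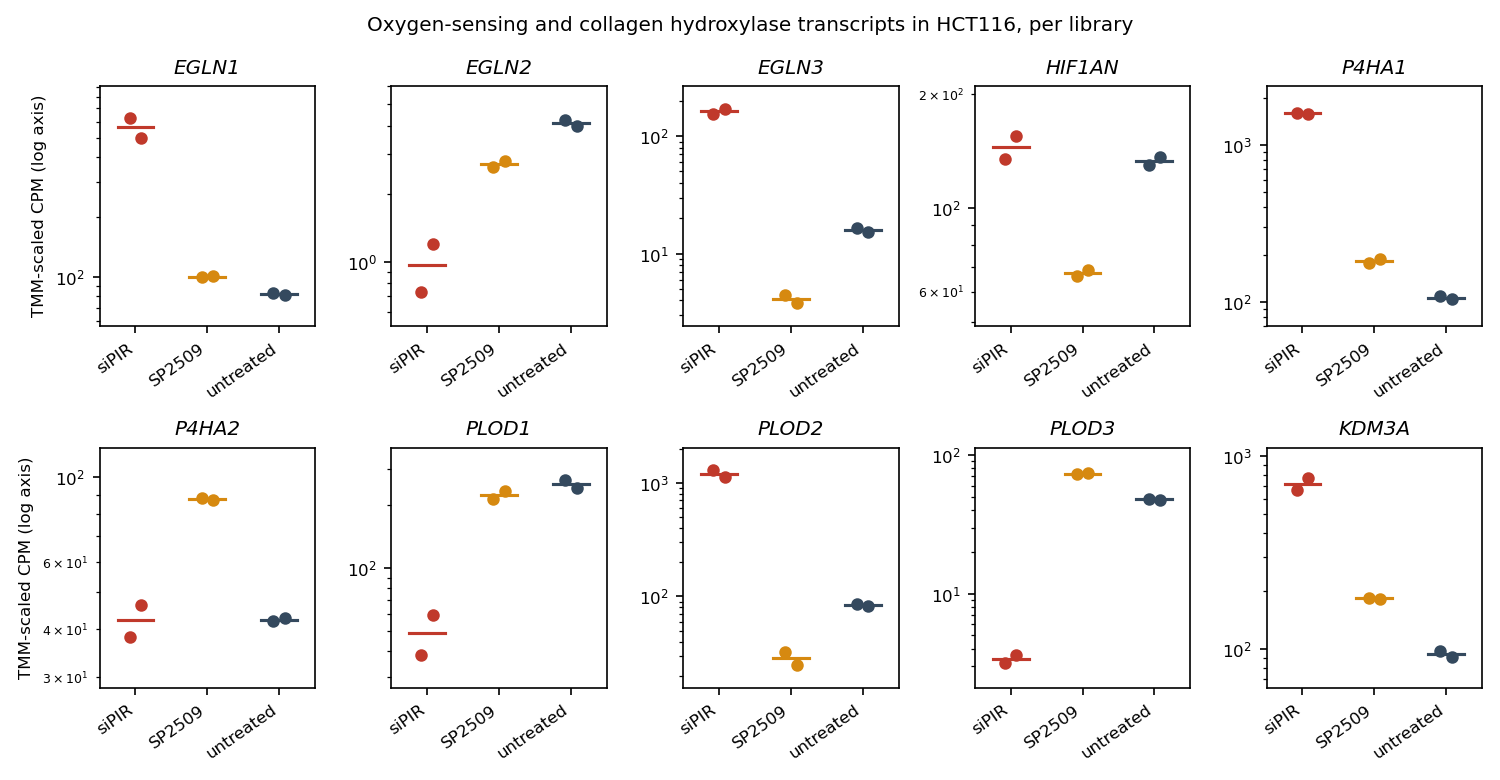
Level of each of the 10 genes in every library in CPM on a log10 axis, with siPIR, SP2509 and untreated libraries from left to right, points for libraries and bars for group means. P4HA1, PLOD2, KDM3A, EGLN1 and EGLN3 are highest in the siPIR libraries, and EGLN3, PLOD2 and HIF1AN are lowest in the SP2509 libraries.

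In siPIR libraries, 5 members rose against untreated libraries (EGLN1, EGLN3, P4HA1, PLOD2 and KDM3A), 3 fell (EGLN2, PLOD1 and PLOD3), and HIF1AN and P4HA2 did not pass the test. The 8 calls compare with 86.1% of all tested genes called in either direction, 39.3% called higher and 46.9% called lower, so the share of members called is near the background. With the offset the same 5 rose, P4HA2 and PLOD1 rose by less, and EGLN2, HIF1AN and PLOD3 did not pass the test. The background was then 65.1% in either direction, 32.7% higher and 32.4% lower. In SP2509 libraries, 9 members were called against untreated libraries, where 68.6% of all genes were called: EGLN1, P4HA1, P4HA2, PLOD3 and KDM3A rose (33.5% of all genes did) and EGLN2, EGLN3, HIF1AN and PLOD2 fell (35.1% of all genes did). Of all genes called in that comparison 48.8% were higher, and 28.3% with scaling by total counts, which called 8 of the members, 3 of them higher. With upper-quartile scaling it was 36.2%, and 9 members were called, 4 of them higher. Between siPIR and SP2509 libraries all 10 members were called, beside 84.3% of all genes. In that comparison 6 were higher in siPIR, beside 38.8% of all genes, and EGLN2, P4HA2, PLOD1 and PLOD3 were lower, beside 45.5%. With the offset 9 of the 10 were called there, 7 higher and 2 lower, beside 69.7% of all genes in either direction, 32.6% higher and 37.1% lower. With 2 libraries a group, levels without overlap were common: this held for 93.1% of all tested genes in siPIR against untreated, 91.8% in siPIR against SP2509 and 86.9% in SP2509 against untreated. The comparisons of siPIR and of SP2509 with untreated cells share their controls.

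Among the oxygen sensors, EGLN1, the main HIF prolyl hydroxylase of most cells at normal oxygen, lies on chr1:231363751-231425044 (GRCh38, GENCODE 29). It had 629 and 496 CPM in siPIR libraries, 99.8 and 101 CPM in SP2509 libraries and 83.0 and 81.6 CPM in untreated libraries. Both siPIR libraries were far above the other 4, and the SP2509 libraries were above the untreated ones without overlap. EGLN1 was 6.84-fold higher in siPIR than in untreated libraries (log2 fold change 2.77, SE 0.12, edgeR adjusted p = 1.86e-10), and 4.15-fold higher with the offset. The 1327 tested genes of like GC content had a median log2 change of 0.77, and 98.6% of them changed by less than EGLN1. The difference of SP2509 from untreated libraries was small. On the log2 scale it was 0.30 in a fit of those 4 libraries alone (edgeR adjusted p = 0.000366). In the fit of all 6 libraries it was 0.29 (SE 0.12, edgeR adjusted p = 0.0415). Leaving out any 1 of the 4 libraries ended that call, with edgeR adjusted p between 0.115 and 0.187, and scaling by total counts turned its sign.

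EGLN3, the prolyl hydroxylase whose own transcript is among the most responsive to low oxygen, fell with SP2509 and rose with siPIR. It lies on chr14:33924231-34462774. Its level was 156 and 170 CPM in siPIR libraries, 4.44 and 3.76 CPM in SP2509 libraries and 16.5 and 15.2 CPM in untreated libraries. The groups did not overlap, with SP2509 lowest, untreated between and siPIR highest. With siPIR relative to untreated libraries it was 10.3-fold higher (log2 fold change 3.36, edgeR adjusted p = 2.72e-11) and 13.8-fold higher with the offset. Its transcript GC content of 49.4% is that of genes with a median log2 change of -0.38, and 99.8% of those 1026 genes changed by less. With SP2509 relative to untreated libraries it was 3.86-fold lower (log2 fold change -1.95, SE 0.13, edgeR adjusted p = 8.92e-08). The log2 difference of siPIR from SP2509 libraries was 5.31 (edgeR adjusted p = 7.18e-12) and 5.65 with the offset.

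EGLN2, the prolyl hydroxylase not known to be induced by HIF, was the least abundant member. It lies on chr19:40798996-40808433, had 14 and 23 counts in siPIR libraries, 67 and 72 in SP2509 libraries and 153.20 and 126 in untreated libraries, and its CPM ran in the same order, without overlap between groups. For SP2509 against untreated libraries its log2 fold change was -0.60 (SE 0.19, edgeR adjusted p = 0.0114), a call that ended with DESeq2 (adjusted p = 0.101), without untreated replicate 1 (edgeR adjusted p = 0.0938) and without SP2509 replicate 1 (edgeR adjusted p = 0.0749). For siPIR against untreated libraries it was -2.09 (edgeR adjusted p = 2.41e-06) as fitted and -0.10 (edgeR adjusted p = 0.767) with the offset. The 975 genes of like GC content had a median of -2.12, close to the value of EGLN2. Of its exon bases 30.6% are shared on the same strand with the readthrough gene RAB4B-EGLN2, listed at 0 in all 6 libraries, so reads of the shared bases may be missing and the level of EGLN2 is uncertain.

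HIF1AN, the asparaginyl hydroxylase also called FIH, lies on chr10:100529072-100559998 and passed the test against untreated libraries with SP2509 but not with siPIR. It had 135 and 155 CPM in siPIR libraries, 66.0 and 68.7 CPM in SP2509 libraries and 130.0 and 136 CPM in untreated libraries. The SP2509 libraries were the lowest pair, and the siPIR and untreated libraries overlapped. HIF1AN fell 1.98-fold in SP2509 against untreated libraries (log2 fold change -0.98, SE 0.10, edgeR adjusted p = 2.93e-06). In siPIR against untreated libraries its log2 fold change was 0.12 (edgeR adjusted p = 0.266), and the 1220 genes of like GC content had a median of 0.17. Its sign and call depended on scaling: it passed as lower with total counts (-0.49, edgeR adjusted p = 0.000544) and as higher with RLE size factors (0.26, edgeR adjusted p = 0.0268), and did not pass with the offset (-0.10) or upper-quartile scaling (-0.05). It was 1.11 higher on the log2 scale in siPIR than in SP2509 libraries (edgeR adjusted p = 2.88e-07). Without siPIR replicate 1 the siPIR difference from untreated libraries passed the test as higher, at 0.24 (edgeR adjusted p = 0.0115).

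**Figure D2:**
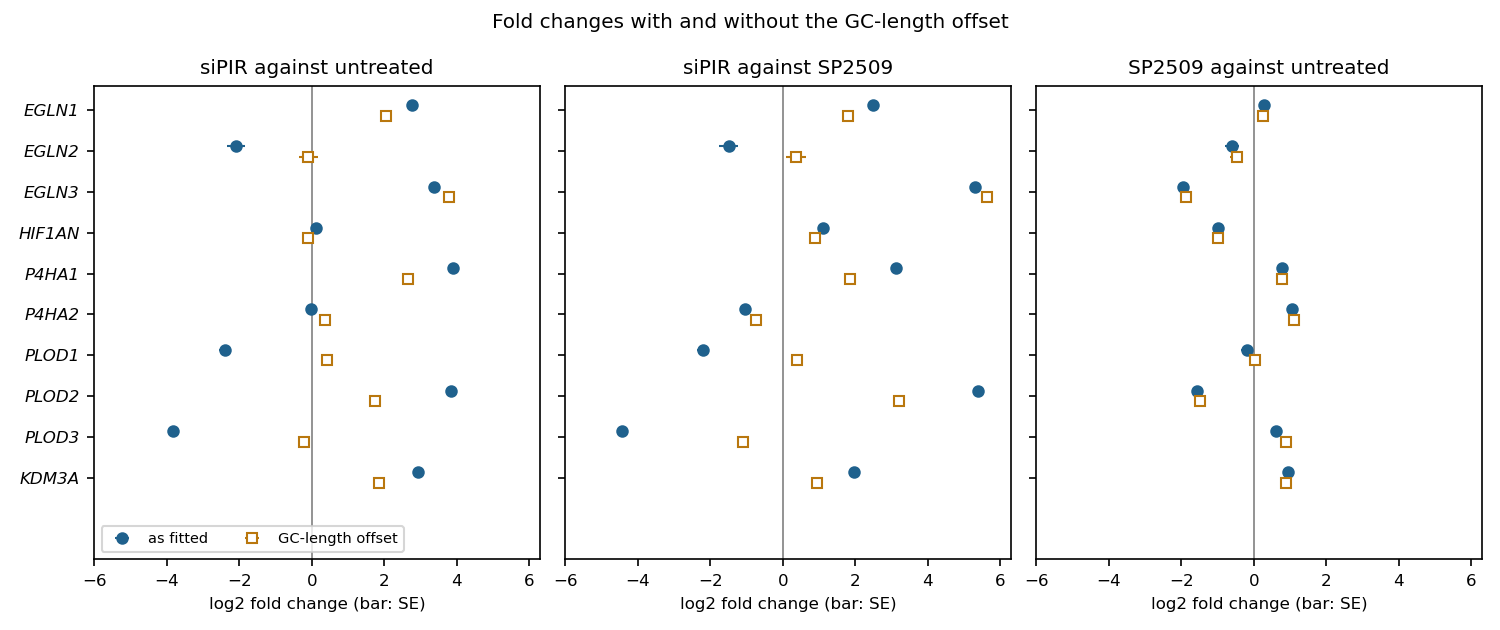
Log2 fold changes of the 10 genes in siPIR against untreated, siPIR against SP2509 and SP2509 against untreated, with filled circles as fitted, open squares with the GC-length offset and bars for the SE. EGLN3, P4HA1, KDM3A, EGLN1 and PLOD2 lie well above 0 for siPIR on both scales, whereas EGLN2, PLOD1 and PLOD3 move toward 0 or across it with the offset.

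Among the collagen prolyl hydroxylases, P4HA1 rose in both treated groups and P4HA2 with SP2509. P4HA1, the more widely expressed catalytic subunit, lies on chr10:73007217-73096974 and had 1596 and 1581 CPM in siPIR libraries, 176 and 186 CPM in SP2509 libraries and 108 and 104 CPM in untreated libraries. The 3 groups did not overlap. With siPIR relative to untreated libraries P4HA1 was 15.0-fold higher (log2 fold change 3.90, edgeR adjusted p = 1.22e-11) and 6.26-fold higher with the offset. The 1415 genes of like GC content had a median of 1.39, and 99.4% of them lay below P4HA1. In SP2509 against untreated libraries it was 1.71-fold higher (log2 fold change 0.77, SE 0.10, edgeR adjusted p = 1.38e-05), or 0.38 with scaling by total counts (edgeR adjusted p = 0.00295).

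P4HA2, an alternative catalytic subunit, lies on chr5:132191838-132295315. It had 38.1 and 46.3 CPM in siPIR libraries, 88.1 and 87.0 CPM in SP2509 libraries and 42.0 and 42.8 CPM in untreated libraries. Only the SP2509 pair stood apart, and the siPIR libraries lay on either side of the untreated ones. P4HA2 rose 2.06-fold in SP2509 against untreated libraries (log2 fold change 1.05, SE 0.11, edgeR adjusted p = 2.42e-06), and the value was 0.66 with scaling by total counts. For siPIR against untreated libraries its log2 fold change was -0.01 (edgeR adjusted p = 0.958) and the 1029 genes of like GC content had a median of -0.34. P4HA2 passed as higher with the offset (0.37, edgeR adjusted p = 0.000712) and as lower with total counts (-0.62, edgeR adjusted p = 0.000152). Opposite-strand exons of P4HA2-AS1 cover 6.45% of its exon bases, and that gene had at most 2 counts in any library.

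Of the lysyl hydroxylases, PLOD2 rose with siPIR and fell with SP2509, and PLOD3 rose with SP2509. PLOD2, which modifies lysines of the collagen telopeptides and so shapes cross-links, lies on chr3:146069440-146163653. It had 24686.5 and 21373.8 counts in siPIR libraries, 822 and 639 in SP2509 libraries and 3115.50 and 2584.10 in untreated libraries, or 1289.6 and 1113 CPM, 32.3 and 24.8 CPM, and 86.2 and 81.7 CPM for siPIR, SP2509 and untreated. As for EGLN3, SP2509 libraries were lowest and siPIR libraries highest, with no overlap. PLOD2 was 14.3-fold higher in siPIR than in untreated libraries (log2 fold change 3.84, edgeR adjusted p = 4.50e-11) and 3.33-fold higher with the offset. It has the lowest transcript GC content of the 10, 34.4%, where 307 tested genes had a median of 2.24 and 97.1% of them lay below it. With SP2509 relative to untreated libraries it was 2.94-fold lower (log2 fold change -1.56, SE 0.13, edgeR adjusted p = 5.18e-07), and 6.51% of the same 307 genes lay lower.

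PLOD1, on chr1:11934205-11975538, hydroxylates lysines of the collagen helix. It had 38.0 and 59.3 CPM in siPIR libraries, 214 and 233 CPM in SP2509 libraries and 265 and 244 CPM in untreated libraries. The siPIR pair was lowest, and its replicates differed more, in relation to their level, than those of the other groups. In siPIR against untreated libraries the log2 fold change was -2.39 (edgeR adjusted p = 1.23e-08) as fitted and 0.41 (edgeR adjusted p = 0.000729) with the offset, so the direction turned. Its GC content is 58.6%, and the 981 genes near it had a median of -2.93. For SP2509 against untreated libraries PLOD1 did not pass the test, at -0.18 (SE 0.15, edgeR adjusted p = 0.302), although the groups did not overlap. The spread in that fit is estimated over all 6 libraries, the siPIR pair included. In a fit of the SP2509 and untreated libraries alone PLOD1 passed as lower, at -0.18 (edgeR adjusted p = 0.0196). Without either siPIR library it was at -0.17. Scaling by the upper quartile (-0.42, edgeR adjusted p = 0.0283) or by total counts (-0.57, edgeR adjusted p = 0.00339) also made it pass as lower, whereas with the offset it was at 0.02.

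PLOD3, which also transfers sugars to hydroxylysine, lies on chr7:101205977-101218420. It had 61 and 69 counts in siPIR libraries, 1843.11 and 1918.50 in SP2509 libraries and 1736 and 1504.12 in untreated libraries. In CPM these were 3.19 and 3.59 for siPIR, 72.4 and 74.4 for SP2509 and 48.0 and 47.6 for untreated, without overlap. PLOD3 rose 1.54-fold in SP2509 against untreated libraries (log2 fold change 0.62, SE 0.09, edgeR adjusted p = 6.80e-05); with scaling by total counts this was 0.23 (edgeR adjusted p = 0.0532). With siPIR relative to untreated libraries it was -3.82 (edgeR adjusted p = 2.76e-11) as fitted and -0.23 (edgeR adjusted p = 0.136) with the offset. It has the highest GC content of the 10, 61.7%, where 766 genes had a median of -4.00. Opposite-strand exons of ZNHIT1 cover 7.57% of its exon bases, and no source used here gives the strand setting of the counting. ZNHIT1 had 54 and 78 counts in siPIR libraries, 724 and 698 in SP2509 libraries and 1356.11 and 1133.33 in untreated libraries. Its part in the counts of PLOD3 was not tested.

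KDM3A, the histone demethylase among the members, lies on chr2:86440647-86492716. It had 669 and 764 CPM in siPIR libraries, 184 and 182 CPM in SP2509 libraries and 98.1 and 91.1 CPM in untreated libraries. The groups did not overlap and ran in the same order as for P4HA1 and EGLN1. KDM3A was 7.57-fold higher in siPIR than in untreated libraries (log2 fold change 2.92, edgeR adjusted p = 5.54e-11) and 3.59-fold higher with the offset, while 1451 genes of like GC content had a median of 1.10 and 97.7% of them lay below it. It was 1.94-fold higher in SP2509 than in untreated libraries (log2 fold change 0.95, SE 0.10, edgeR adjusted p = 4.15e-06), or 0.56 with scaling by total counts.

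Set directly against SP2509 libraries, the siPIR libraries differed in all 10 members, without overlap, as did most of all tested genes by the shares given above. PLOD2 had a log2 difference of 5.40 (3.21 with the offset), P4HA1 of 3.13 (1.86), EGLN1 of 2.48 (1.80) and KDM3A of 1.97 (0.94), each higher in siPIR on both scales. Genes of like GC content had medians of 2.33 for PLOD2, 1.29 for P4HA1, 0.78 for EGLN1 and 1.06 for KDM3A in this comparison. For EGLN3 and HIF1AN, described above, they were -0.37 and 0.13. P4HA2 at -1.05 (-0.75 with the offset) and PLOD3 at -4.43 (-1.11) were lower in siPIR on both, with medians of -0.30 and -3.93 for genes of like GC content. PLOD1 was at -2.20 as fitted and 0.38 with the offset (edgeR adjusted p = 0.00116), so its call reversed, and genes of like GC content had a median of -2.65. EGLN2 was at -1.49 as fitted and 0.37 with the offset, where it did not pass the test (edgeR adjusted p = 0.252), beside a median of -1.90.

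**Figure D3:**
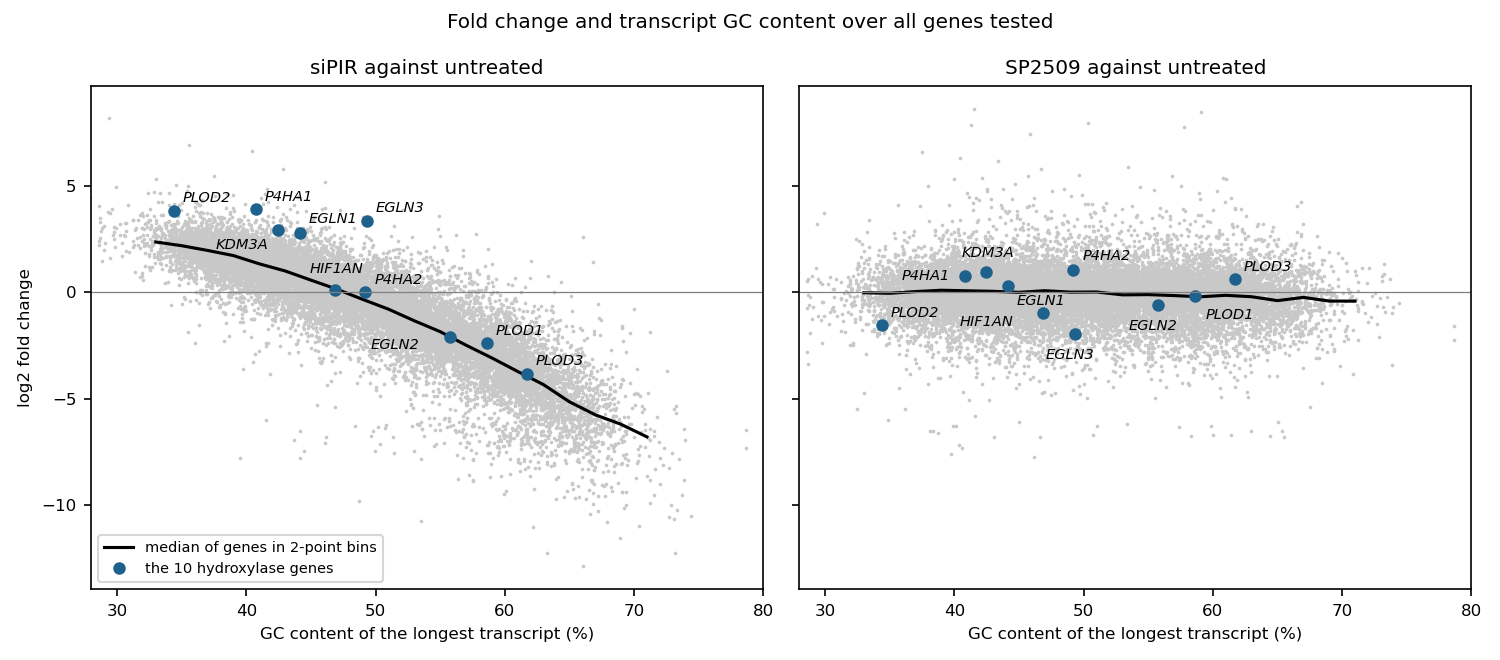
Log2 fold change against GC content of the longest transcript for all tested genes (grey), with the median of 2-point bins as a line and the 10 genes in blue, for siPIR against untreated (left) and SP2509 against untreated (right). In the siPIR panel EGLN3, P4HA1, KDM3A, EGLN1 and PLOD2 lie above the line and EGLN2, HIF1AN and PLOD3 lie on or near it, whereas the line is close to flat in the SP2509 panel.

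Across the 10 members the siPIR changes also followed GC content, with a Spearman correlation of -0.87 as fitted and -0.55 with the offset, as a description over 10 genes, beside -0.88 and -0.18 over all genes. In SP2509 against untreated libraries it was -0.05. The members' median log2 change in siPIR against untreated libraries was 1.45, beside -0.28 for all genes, and 1.07 beside -0.04 with the offset. With SP2509 relative to untreated libraries it was 0.05, beside -0.04 for all genes.

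Dividing CPM by the exon length of each gene lets levels be compared between genes, but only roughly. The length used is the union of all annotated exons. This is 7359 bases for EGLN3 with a longest transcript of 2849, 8502 against 3349 for P4HA2, and 7646 against 3835 for PLOD2. For PLOD1 it is 5320 against 2940, for EGLN1 7265 against 7097 and for P4HA1 3093 against 2844. The order between genes rests on this choice, and other lengths were not tested. In siPIR libraries P4HA1 was highest at 514 ± 3.27 CPM per kb (SD, n = 2), followed by PLOD2 at 157 ± 16.3, EGLN1 at 77.4 ± 13, KDM3A at 53.4 ± 4.99 and EGLN3 at 22.1 ± 1.37 CPM per kb. HIF1AN at 10.4 ± 1.01 and PLOD1 at 9.14 ± 2.83 CPM per kb came next and did not differ beyond their spread, and P4HA2, PLOD3 and EGLN2 were below 5 CPM per kb. In SP2509 libraries P4HA1 led at 58.6 ± 2.27, before PLOD1 at 42.1 ± 2.55 CPM per kb. EGLN1 at 13.8 ± 0.14 and KDM3A at 13.6 ± 0.13 CPM per kb differed by less than the sum of their SDs there, and PLOD3 at 12.9 ± 0.25, P4HA2 at 10.3 ± 0.10, HIF1AN at 4.83 ± 0.14 and PLOD2 at 3.73 ± 0.69 CPM per kb came after them. In untreated libraries PLOD1 led at 47.8 ± 2.82 and P4HA1 followed at 34.3 ± 1.04 CPM per kb. EGLN1 at 11.3 ± 0.14 and PLOD2 at 11 ± 0.41 CPM per kb did not differ beyond their spread there. HIF1AN, PLOD3, KDM3A and P4HA2 lay between 9.54 and 4.99 CPM per kb, and EGLN3 and EGLN2 were lowest at 2.15 ± 0.12 and 0.625 ± 0.027 CPM per kb. EGLN2 had the lowest value in all 3 groups as counted, but its place is not settled in SP2509 libraries: over its unshared exon bases alone it would be 0.594 CPM per kb there, above EGLN3 at 0.557. The siPIR order is given without the offset.

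Within each family the make-up of transcripts differed between groups, as shares of the family's summed CPM per kb, a quantity that no library scaling touches. PLOD2 made up 95.6% and 92.5% of PLOD transcripts in siPIR libraries, 7.37% and 5.38% in SP2509 libraries and 16.2% and 16.5% in untreated libraries. PLOD1 held the reverse place, with 4.05% and 7.08% in siPIR libraries, 70.3% and 72.8% in SP2509 libraries and 71.6% and 70.6% in untreated libraries. As counted, the leading lysyl hydroxylase transcript was PLOD2 in siPIR libraries and PLOD1 in the other 4. The switch did not hold with the offset: multiplying the untreated levels by the siPIR folds with the offset gave 34.1% for PLOD2 and 59.2% for PLOD1, so that PLOD1 led in siPIR too, with the share of PLOD2 above its untreated one. This estimate was chosen after seeing the data. P4HA1 was 99.1% and 98.9% of the sum of P4HA1 and P4HA2 in siPIR libraries, 84.6% and 85.5% in SP2509 libraries and 87.6% and 86.9% in untreated libraries. By the same estimate with the offset its siPIR share was 97.1%. P4HA3, a tested gene of the list of other collagen hydroxylation genes, is not in this sum. EGLN1 was the leading EGLN transcript in every library, at 80.3% and 74.5% in siPIR libraries, 93.2% and 93.7% in SP2509 libraries and 79.9% and 80.8% in untreated libraries. EGLN3 held 19.6% and 25.3% of EGLN transcripts in siPIR libraries, 4.09% and 3.44% in SP2509 libraries and 15.6% and 14.9% in untreated libraries, without overlap between groups. With the offset the siPIR shares of EGLN1 and EGLN3 were estimated at 60.9% and 38.3%. All these shares rest on union exon lengths. Those exceed the longest transcript far more for EGLN3 and P4HA2 than for EGLN1 and P4HA1. Which of EGLN1 and EGLN3 leads in siPIR libraries with the offset is therefore not settled.

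**Figure D4:**
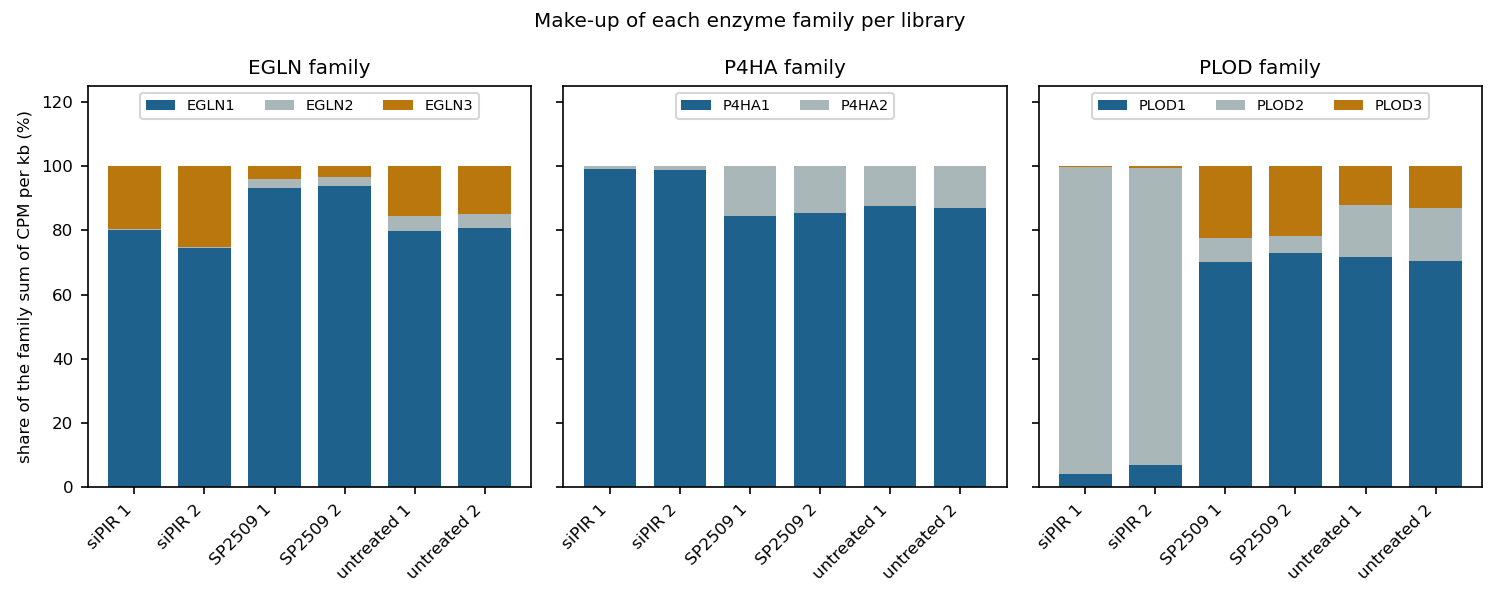
Shares of the EGLN, P4HA and PLOD families' summed CPM per kb held by each gene, in percent, with P4HA as P4HA1 and P4HA2 alone. Stacked bars show each library from siPIR on the left to untreated on the right. PLOD2 fills over 92% of the PLOD bars in siPIR libraries and under 17% in the other 4, as counted and without the offset.

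The 6 libraries were also searched for the genes whose log2 CPM, centred on their own mean, lay closest to a member by Euclidean distance. For P4HA1 these were ERO1A, an oxidase of the endoplasmic reticulum, at 0.267, the glucose transporter SLC2A3 at 0.461 and RP11-553L6.5 at 0.479. For KDM3A they were NAMPT at 0.228, UGCG at 0.235 and LPP at 0.253, and for EGLN1 they were SLC30A7 at 0.0920, KPNA5 at 0.120 and EREG at 0.130. Among the members themselves EGLN3 and PLOD2 were the closest pair at 0.565, followed by EGLN2 and PLOD1 at 0.778 and EGLN1 and KDM3A at 0.794. These distances rest on 6 libraries in 3 groups, and for siPIR they hold the trend on base composition.

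Other genes of the same pathways were followed through lists of known members. Their counts are to be read against all tested genes, of which 39.3% rose and 46.9% fell in siPIR against untreated (32.7% and 32.4% with the offset), and 33.5% rose and 35.1% fell in SP2509 against untreated. Of 26 tested HIF target genes outside the 10 (28 in the list), 17 rose and 7 fell in siPIR against untreated libraries, with a median log2 change of 1.15. With the offset 22 rose and 1 fell, with a median of 1.94. INSIG2 changed by 3.66 (1.68 with the offset), ERO1A by 3.69 (2.03) and the pyruvate dehydrogenase kinase PDK1 by 3.58 (2.003) on the log2 scale. Against SP2509 libraries, 16 of the 26 were higher and 9 lower in siPIR, with a median of 0.999, and 23 and 2 with the offset, with a median of 1.67. For SP2509 against untreated libraries 9 of the list were higher, 8 were lower and the median was -0.04, shares near those of all genes. There BHLHE40 rose by 1.98 and the angiogenic factor VEGFA by 1.77, while the glycolytic enzyme PGK1 fell by 1.06 on the log2 scale. The list also held CA9, a HIF-induced carbonic anhydrase, with a log2 change of -1.60 in SP2509 against untreated libraries (edgeR adjusted p = 0.00139). In siPIR against untreated libraries CA9 changed by -1.13 as fitted (edgeR adjusted p = 0.00939) and by 2.04 with the offset. CA9 was chosen after its values were seen.

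Of 9 tested HIF subunits and parts of the VHL ligase, 7 rose and 2 fell in siPIR against untreated libraries (median 0.47), and 4 rose and 4 fell with the offset (median -0.07). ELOB, an adaptor subunit of the VHL ligase, changed by -4.87 (-1.46 with the offset), ARNT2, a HIF partner subunit, by -2.50 (-1.60), and the scaffold CUL2 by 1.36 (-0.07). HIF1A, the oxygen-regulated alpha subunit, changed by 1.20 as fitted and by -0.71 with the offset, so its direction depends on that step. VHL, which recognises hydroxylated HIF, changed by 1.34 as fitted and 1.35 with the offset. In SP2509 against untreated libraries 4 rose and 1 fell (median -0.01), with EPAS1, another alpha subunit, at 1.01, its partner ARNT at 0.72 and CUL2 at 0.55, while HIF1A was at -0.01 (edgeR adjusted p = 0.947). Of 6 partners of the EGLN enzymes, 3 rose and 2 fell in siPIR against untreated libraries (median 0.60; with the offset 2 and 2, median 0.04), and 3 rose and 1 fell in SP2509 against untreated libraries (median 0.29). SIAH2 and SIAH1, ubiquitin ligases that target EGLN proteins, rose by 2.08 and 1.38 on the log2 scale with SP2509, and LIMD1, a scaffold for EGLN and VHL proteins, fell by 0.66. For siPIR against untreated libraries SIAH2 changed by 1.13 (3.34 with the offset) and FKBP8, a binding partner of EGLN1, by -6.14 (-1.50 with the offset), while PTGES3 changed by 2.44 (1.59) and OS9 by -2.10 (-1.16).

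**Figure D5:**
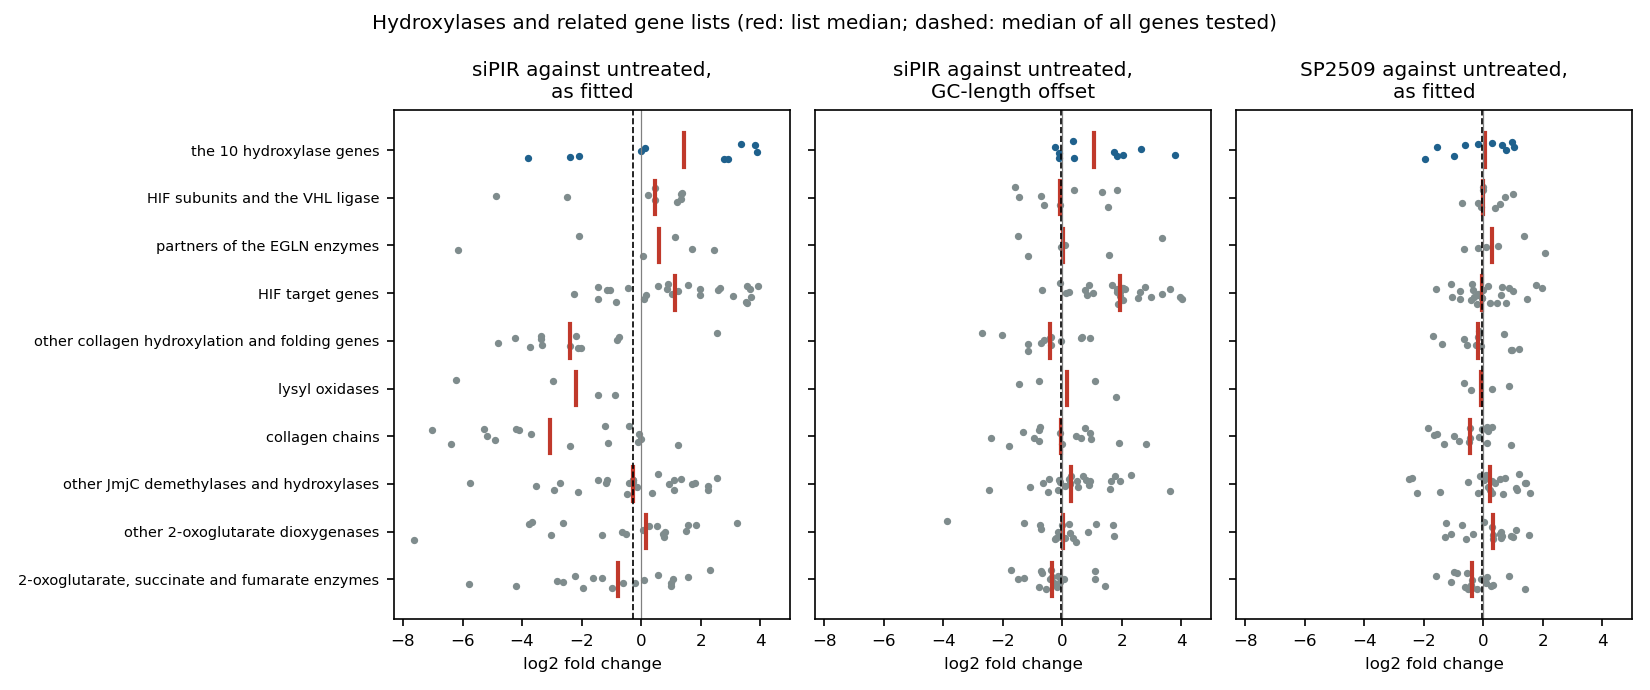
Log2 fold changes of the 10 members and of the genes in each pathway list, as points with a bar for the median of the list, for siPIR against untreated as fitted, for the same with the GC-length offset and for SP2509 against untreated. The HIF target list has its median at 1.15, 1.94 and -0.04 in these panels, and the collagen chain list at -3.05, -0.03 and -0.45.

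On the collagen side, the genes with which the P4HA and PLOD enzymes work were mostly called lower in siPIR libraries as fitted, at transcript GC contents where most genes were lower. Tested genes near 55.8%, 58.6% and 61.7% GC had the medians of -2.12, -2.93 and -4.00 given above for EGLN2, PLOD1 and PLOD3. Of 13 other tested genes listed for collagen hydroxylation and folding, 12 fell and 1 rose in siPIR against untreated libraries (median -2.39). With the offset 9 fell and 3 rose (median -0.42). P4HB, the partner of P4HA1 and P4HA2, changed by -2.11 as fitted and by 0.64 with the offset, so its direction turned. The list also holds P4HTM, at -3.35 (-0.42 with the offset), whose part in collagen hydroxylation was not checked. Prolyl hydroxylase relatives P3H4 and P3H3 changed by -4.22 (-0.60 with the offset) and -4.79 (-1.16), and the prolyl isomerase FKBP10 by -3.32 (-0.36). With SP2509 relative to untreated libraries 4 rose and 4 fell (median -0.18), with the collagen chaperone SERPINH1 at 0.97, FKBP14 at 1.19 and P3H3 at -1.67. Of 16 tested collagen chains, 12 fell and 1 rose in siPIR against untreated libraries (median -3.05), but 5 fell and 5 rose with the offset (median -0.03). COL18A1 changed by -7.02 (-2.38 with the offset), COL6A1 by -5.28 (-1.31) and COL6A2 by -6.40 (-1.80). For SP2509 against untreated libraries 8 collagen chains fell and 1 rose (median -0.45), among them COL9A3 by -1.32, COL6A1 by -0.97 and COL9A2 by -1.85. All 4 tested lysyl oxidases, which cross-link hydroxylated collagen, fell in siPIR against untreated libraries (median -2.19), whereas 2 rose and 2 did not pass the test with the offset (median 0.16). LOXL1 changed by -6.22 (-1.45 with the offset), LOXL3 by -2.94 (-0.77) and LOXL2 by -0.87 (1.82). The mean of LOXL1 in siPIR libraries was 0.104 CPM, below the level of 3 counts, so the size of its change is uncertain. LOX itself was listed at 0 in all 6 libraries. In SP2509 against untreated libraries LOXL4 rose by 0.85 and LOXL2 by 0.30, and LOXL1 fell by 0.66 on the log2 scale. The median GC content of the collagen chain list was 61.2%, of the lysyl oxidases 58.0% and of the folding list 56.5%.

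Relatives of the members by chemistry moved in both directions. Of 25 other tested JmjC demethylases and hydroxylases, the family of KDM3A and HIF1AN, 10 rose and 11 fell in siPIR against untreated libraries (median -0.27), and 16 rose and 5 fell with the offset (median 0.31). With SP2509 relative to untreated libraries 11 rose and 5 fell (median 0.22), with the histone demethylases KDM7A at 1.42 and KDM6A at 1.43 and the ribosomal oxygenase RIOX1 at -2.49. KDM7A changed by 2.55 (0.80 with the offset) in siPIR against untreated libraries, KDM6B by -2.71 (0.93) and JMJD4 by -5.75 (-2.45). The mean of JMJD4 in siPIR libraries was 0.209 CPM, near the level of 3 counts, so the size of its change is uncertain. Of 18 other tested 2-oxoglutarate dioxygenases, 9 rose and 8 fell in siPIR against untreated libraries (median 0.17; with the offset 7 and 5, median 0.04), and 11 rose and 6 fell in SP2509 against untreated libraries (median 0.34). The aspartyl hydroxylase ASPH changed by 3.22 (1.76 with the offset) in siPIR against untreated libraries, OGFOD3 by -3.76 (-0.76) and ALKBH7 by -7.64 (-3.87). The mean of ALKBH7 in siPIR libraries was 0.0781 CPM, below the level of 3 counts, so the size of its change is uncertain. With SP2509, TMLHE was at 1.53, the DNA demethylase TET3 at 1.09 and OGFOD3 at -1.24. Of 18 tested enzymes that make or use 2-oxoglutarate, succinate and fumarate, 6 rose and 10 fell in siPIR against untreated libraries (median -0.79; with the offset 3 and 11, median -0.35). D2HGDH changed by -5.80 (-1.50 with the offset), IDH3G by -4.20 (-0.77) and IDH2 by -2.61 (-0.56). For SP2509 against untreated libraries 4 rose and 10 fell (median -0.39), with D2HGDH at -1.59, SDHC at -0.97 and GOT1 at 1.39.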

How the data were processed

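Each value is an estimated count per gene, deposited by the authors as 1 table of 6 columns with no further normalization. Per the submitters' processing notes the tools were FastQC 0.11.8, Trimmomatic 0.32, HISAT2, featureCounts of Subread 1.6.2 and edgeR 3.26.4, with build GRCh38. Fractional counts show that some reads were shared between genes, by a rule not given in the sources used here. The notes' trimming settings and strand setting are likewise not given there. No row lacks a gene.

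The estimated counts were rounded to whole numbers. Genes were filtered with edgeR's default rule, scaled by TMM and tested in 1 quasi-likelihood fit over all 6 libraries (edgeR 4.0.16, limma 3.58.1, R 4.3.3; 3 residual degrees of freedom), with p-values adjusted over 16503 genes at 0.05. Log2 CPM for distances used a prior count of 2. The fit was tested on simulated data. The offset was a spline with 5 degrees of freedom on GC content and on length of the longest transcript (GENCODE 29, which held 57055 of 60675 IDs). The 158 tested genes without a value got no correction. A count of 3 corresponds to 0.0830 to 0.157 CPM, which covers counting error only.

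Groups came from the titles. Alternatives were 3 other scalings, DESeq2 1.42.0, limma-voom, other filters, only the libraries compared, blocks, the offset and leaving out each library. Members, lists (13, with 184 entries, 4 matched by ID to an older symbol) and these alternatives were chosen with earlier results of these data known. The lists share some genes, such as KDM4B, COL1A1 and COL3A1. Beyond the 10 members, each list gave up to 3 genes per comparison with the smallest adjusted p. They are named for both comparisons with untreated cells. HIF1A and VHL were named by the comparison of siPIR with SP2509, and their values in other comparisons are given too, as for SIAH2. CA9, P4HB and P4HTM lie outside the rule. The nearest 3 genes were sought for EGLN1, P4HA1 and KDM3A.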

Additional observations from a re-analysis of the deposited data

How the results depend on the processing

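The number of members called stayed within 1.5 times of 9, 8 and 10 (SP2509 against untreated, siPIR against untreated, siPIR against SP2509) under all 18 alternatives, and between 7 and 10 when 1 library was left out. The direction turned for these log2 fold changes. In SP2509 against untreated, EGLN1 was -0.10 with total counts and PLOD1 0.0249 with the GC-length offset. In siPIR against untreated, HIF1AN was -0.0503 with upper-quartile scaling, -0.49 with total counts and -0.10 with the offset; PLOD1 was 0.41 with the offset. There P4HA2, at -0.01, was 0.13 with RLE size factors, DESeq2 and the block for the number in the descriptions, 0.0163 with the 1 CPM filter, 0.37 with the offset, and from -0.13 (without siPIR replicate 2) to 0.14 (without siPIR replicate 1) with 1 library left out, including 0.00935 without SP2509 replicate 2. P4HA2 passed as lower with total counts, at -0.62. In siPIR against SP2509, EGLN2 was 0.37 and PLOD1 0.38 with the offset. The cause was not tested. EGLN1, P4HA1, PLOD2, EGLN3 and KDM3A kept their direction and call in siPIR against untreated under every alternative run.

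Scaling moved the split of calls between directions. In SP2509 against untreated, the higher share of called genes was 48.8% under TMM, 36.2% under the upper quartile and 28.3% under total counts, and in siPIR against untreated 45.6% and 33.9% with TMM and total counts. Same-numbered libraries did not deviate together (correlations from -0.0385 to 0.0815), so the numbers were not taken to pair them; a fit with a replicate block called 9, 8 and 10 members. The block for the unexplained number called 10, 9 and 10, since PLOD1 passed in SP2509 against untreated (-0.18, edgeR adjusted p = 0.0401) and HIF1AN in siPIR against untreated (0.25, edgeR adjusted p = 0.0295). With 2 libraries a group, small differences such as that of EGLN1 with SP2509 were near the limit of the fit over all 6 libraries. Replicates differed most in siPIR libraries, with a chi-square per degree of freedom of 19.1. It was 4.14 in untreated and 6.83 in SP2509 libraries. In a fit of the SP2509 and untreated libraries alone EGLN1 was at 0.30 (edgeR adjusted p = 0.000366). The call of EGLN1 also depended on the scaling, the filter and the libraries in the fit.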
